A study of Mus musculus with 24 samples.

Results

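The 53 genes described here encode proteins that build ribosomes. They were taken by name from the 38215 genes of the count table. The list was drawn up from known function, but with earlier results of these data known. All 53 were found and had enough counts to be tested. The list holds 8 genes of rRNA transcription, 5 abundant nucleolar proteins, 4 proteins of box C/D and 4 of box H/ACA small nucleolar ribonucleoproteins (snoRNPs), 19 assembly factors of the small subunit and 13 of the large subunit.

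Ribosomes are made mainly in the nucleolus. RNA polymerase I transcribes a long precursor from the rDNA repeats, snoRNPs guide its chemical modification, and large sets of assembly factors fold and cut it and add ribosomal proteins until the small and large subunits leave the nucleus. Haematopoietic stem cells at rest are known for a low rate of protein synthesis, and ribosome production is known to rise when cells prepare to grow and divide. MYC is a well-known activator of many of these genes.

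The study asked how pegylated interferon alpha (pegIFN), a treatment of myeloproliferative neoplasms, acts on long-term haematopoietic stem cells (LT-HSCs) that carry Jak2V617F, a mutation that keeps the kinase Jak2 active without its cytokine, and on wild-type LT-HSCs beside them. Irradiated C57BL/6J Ptprc a/b recipients received equal parts of marrow from Jak2 fl-V617F/+ Tg(E2A-cre) donors (CD45.2) and from congenic Jak2+/+ Ptprca donors (CD45.1). Lin- Sca1+ cKit+ CD150+ CD48- cells of both donors were sorted from 12 mice. The 4 groups were Jak2V617F with pegIFN, Jak2V617F with vehicle (PBS with bovine serum albumin), wild-type with pegIFN and wild-type with vehicle, each with 6 libraries. Each mouse gave a library of both genotypes. PegIFN was given at 600 ng subcutaneously each week, in 5 doses over 4 weeks, and the sort followed 48 hours after the final injection. The age of the mice is not given in the sources used here. The wild-type cells shared a marrow with mutant cells, so they are not cells of a healthy animal. Genotype and donor cannot be told apart.

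Polyadenylated RNA was sequenced, and the total of expected counts per library ran from 24.6 to 39.7 M. Levels below are CPM, counts relative to the scaled total of the library, a measure that does not give the amount of RNA per cell. Where a protein or complex is named, the level is that of the RNA of its genes. Fewer cells of a type and less RNA per cell cannot be told apart in these bulk samples. Counts per gene do not show the Jak2 allele, and Jak2 averaged 126 ± 9.39 and 119 ± 8.80 CPM in Jak2V617F libraries with pegIFN and vehicle, against 156 ± 5.10 and 138 ± 16.7 CPM in wild-type libraries with pegIFN and vehicle (SD, n = 6 each). All 11 LT-HSC markers examined were detected well enough to be tested. Xist ran from 40.8 to 653.9 CPM in Jak2V617F pegIFN, 3.00 to 54.9 CPM in Jak2V617F vehicle, 1801 to 2630 CPM in wild-type pegIFN and 599.8 to 3310 CPM in wild-type vehicle libraries, so the sex of the donor cannot be told apart from the genotype. It set a pair of libraries apart from their groups. Jak2V617F pegIFN replicate 1 had 653.9 CPM, against 40.8 to 110 CPM in the others of its group, and wild-type vehicle replicate 4 had 599.8 CPM, against 1937 to 3310 CPM in the others of its group. Both were kept, and results that rest on them are also given without them.

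All 53 genes were well counted, and the smallest count of any of the 53 in any library was 930. Levels were also divided by the joint length of all annotated exons of a gene. By this measure Npm1 stood first in wild-type vehicle cells with 316 CPM per kb, before Ncl with 133, Noc2l with 108 and Nop56 with 78.4. Wdr12 stood last with 5.63 CPM per kb, over a joint length of 11955 bases. The length joins exons of every annotated transcript, so this order depends on the annotation and is no firm ranking of transcript abundance. Without division by length, Ncl averaged 1353 CPM and Npm1 842.5 CPM in wild-type vehicle cells, so they weigh heavily in any sum over the set.

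PegIFN raised nearly the whole set in both genotypes. In Jak2V617F cells 52 of 53 genes rose and none fell, and in wild-type cells 53 of 53 rose and none fell, Nop10 less firmly than the rest (edgeR quasi-likelihood test, Benjamini-Hochberg adjusted p under 0.05 over all 15879 genes tested). Over all genes, 21.7% were called higher and 22.3% lower in Jak2V617F cells, and 28.2% higher and 28.7% lower in wild-type cells, so the response to pegIFN was broad but even in direction outside this set. The median log2 fold change of the 53 genes was 0.38 in Jak2V617F cells (1.3-fold) and 0.51 in wild-type cells (1.42-fold), where the median of all genes was -0.01 in both. Single genes ranged between 0.15 (Nop10) and 0.74 (Bysl) in Jak2V617F cells and between 0.25 (Nop10) and 1.10 (Bysl) in wild-type cells. Of the 53 genes, only Bysl in wild-type cells passed a log2 change of 1.

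**Figure D1:**
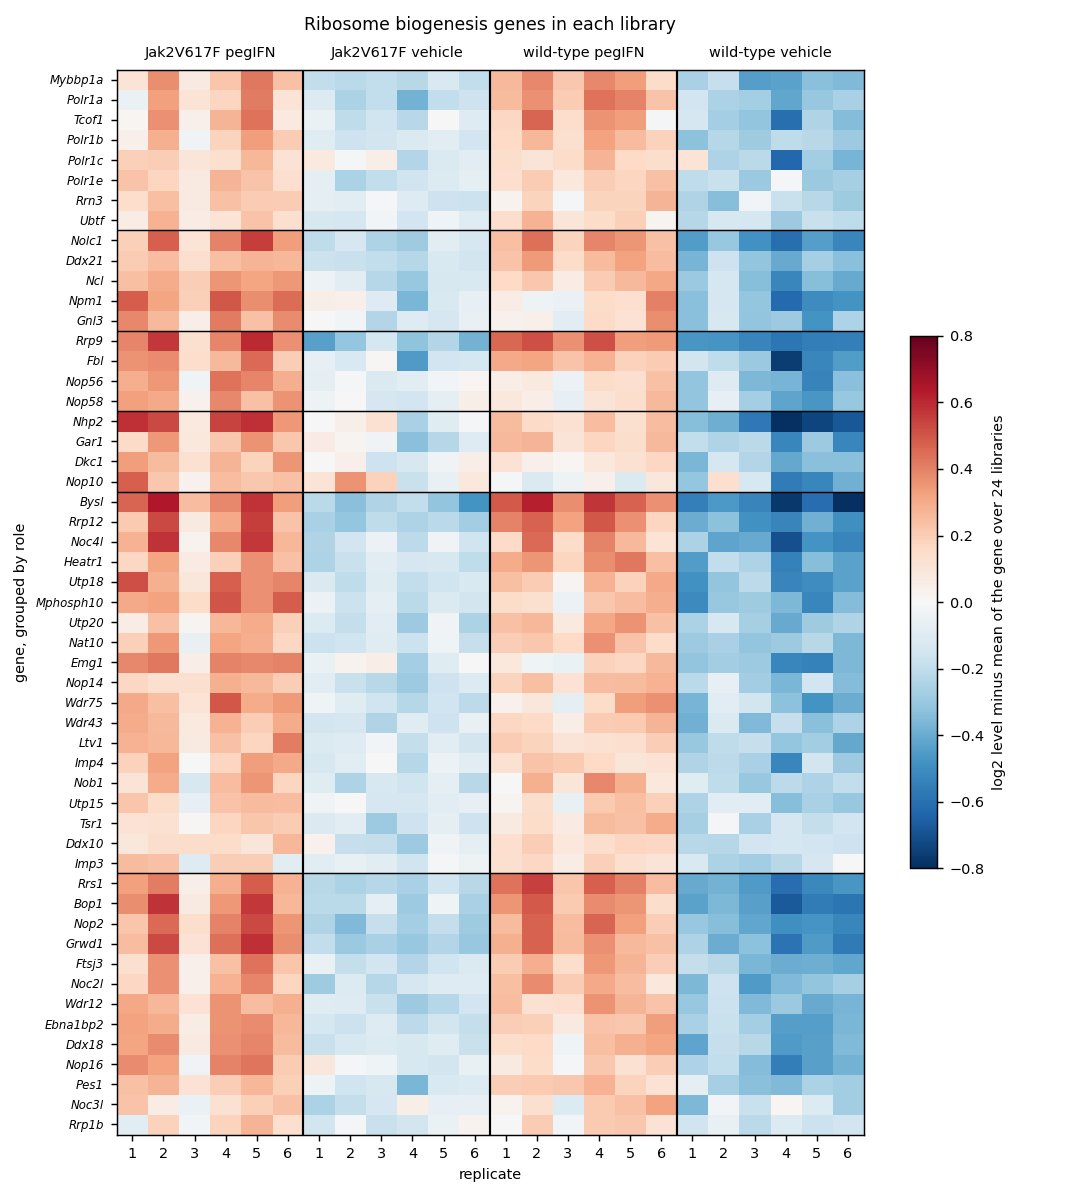
Levels of the 53 genes (rows, ordered by role) in the 24 libraries (columns, by group), as the log2 difference of each library from the gene's mean over all libraries. Libraries with pegIFN are above the mean for most genes, with library medians from 0.07 to 0.35 in Jak2V617F and from 0.10 to 0.24 in wild-type cells, and wild-type vehicle libraries are lowest as a group, with medians from -0.41 to -0.20, against -0.22 to -0.10 in Jak2V617F vehicle libraries.

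Summed over the 53 genes, Jak2V617F libraries held 12180 ± 743 CPM with pegIFN and 9178 ± 340 CPM with vehicle, and wild-type libraries held 11580 ± 497 CPM with pegIFN and 8013 ± 516 CPM with vehicle (SD, n = 6 each). The ranges with pegIFN and with vehicle did not overlap in either genotype. In Jak2V617F cells the sum ran from 10780 to 12830 CPM with pegIFN, against 8530 to 9456 CPM with vehicle. In wild-type cells it ran from 10690 to 11960 CPM with pegIFN, against 7363 to 8895 CPM with vehicle. Without Ncl and Npm1 the mean sums were 8649 CPM with pegIFN and 6601 CPM with vehicle in Jak2V617F cells, and 8423 CPM with pegIFN and 5817 CPM with vehicle in wild-type cells, so the order did not rest on that abundant pair. Gene by gene, the 6 pegIFN libraries were all above the 6 vehicle libraries for 42 of 53 genes in Jak2V617F cells, where 9.81% of all genes were separated in that direction and 8.58% in the other. In wild-type cells this held for 49 of 53 genes, against 15.1% of all genes in that direction and 14.8% in the other. On totals without the scaling these counts were 36 and 39.

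**Figure D2:**
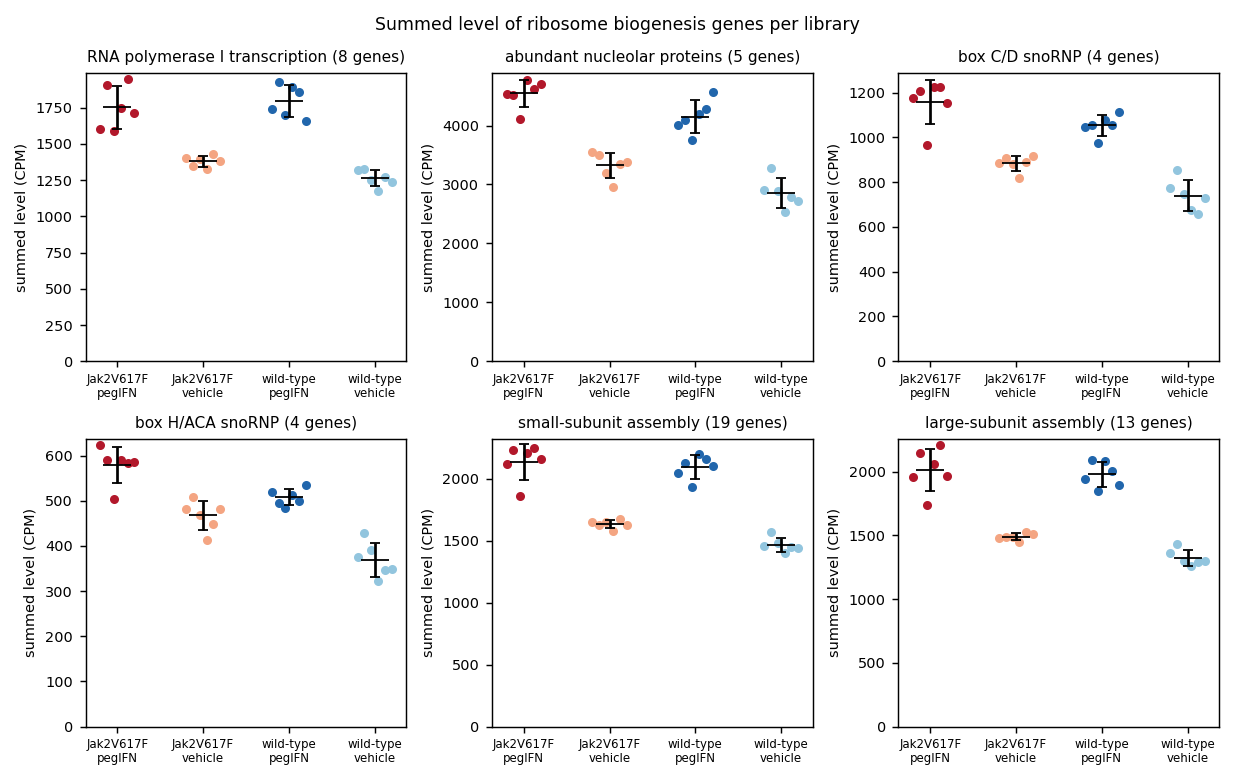
Summed level of each role group per library in CPM, with the groups Jak2V617F pegIFN, Jak2V617F vehicle, wild-type pegIFN and wild-type vehicle side by side. Points are libraries and lines are group means. The 5 abundant nucleolar proteins average 4544 CPM in Jak2V617F pegIFN and 2852 CPM in wild-type vehicle libraries.

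The 8 genes of rRNA transcription all rose in both genotypes, with medians of 0.32 in Jak2V617F and 0.45 in wild-type cells. Polr1a, the largest subunit of RNA polymerase I (chromosome 6, 71909053 to 71979356, GRCm38), ran from 137.5 to 190.6 CPM in Jak2V617F pegIFN libraries (median 158), against 109.7 to 132.4 CPM with vehicle (median 125). In wild-type cells it ran from 164 to 193 CPM with pegIFN (median 177), against 107 to 128 CPM with vehicle (median 119). The groups did not overlap, and the log2 fold change was 0.40 ± 0.07 in Jak2V617F (SE; adjusted p = 4.17e-05) and 0.59 ± 0.07 in wild-type cells (adjusted p = 1.07e-07). Polr1b, which forms the catalytic centre with Polr1a, changed by 0.30 ± 0.05 in Jak2V617F (adjusted p = 6.51e-05) and 0.48 ± 0.05 in wild-type cells (adjusted p = 5.38e-08). Mybbp1a, a nucleolar protein linked to rRNA synthesis and processing, had the smallest p of the 8 in both genotypes and changed by 0.44 ± 0.06 in Jak2V617F (adjusted p = 4.34e-06) and 0.62 ± 0.06 in wild-type cells (adjusted p = 9.39e-09). Rrn3, the factor that brings the polymerase to the promoter, rose by 0.29 in Jak2V617F and 0.35 in wild-type cells, and Ubtf, which keeps rDNA open, by 0.24 and 0.34. Polr1c, shared with polymerase III, rose least in Jak2V617F cells (0.22 ± 0.08, adjusted p = 0.0289), and Tcof1, a nucleolar partner of the polymerase, rose by 0.33 in Jak2V617F and 0.56 in wild-type cells. Polr1e, another polymerase subunit, rose by 0.33 and 0.38.

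The genes of all 5 abundant nucleolar proteins rose in both genotypes, and for each of them no pegIFN library overlapped a vehicle library. Ncl, nucleolin, which binds the rRNA precursor, ran from 1960 to 2180 CPM in Jak2V617F pegIFN libraries (median 2109), against 1383 to 1662 CPM with vehicle (median 1568). In wild-type cells Ncl ran from 1780 to 2117 CPM with pegIFN (median 1975), against 1191 to 1553 CPM with vehicle (median 1349). This is a log2 fold change of 0.44 ± 0.06 in Jak2V617F (adjusted p = 2.76e-06) and 0.54 ± 0.06 in wild-type cells (adjusted p = 5.37e-08). Npm1, nucleophosmin, a histone and ribosome chaperone, ran from 1255 to 1554 CPM in Jak2V617F pegIFN libraries (median 1463), against 854 to 1137 CPM with vehicle (median 1039). In wild-type cells Npm1 ran from 1062 to 1457 CPM with pegIFN (median 1177), against 717 to 1004 CPM with vehicle (median 833). Its change was nearly the same in both genotypes, 0.48 ± 0.09 in Jak2V617F (adjusted p = 9.3e-05) and 0.50 ± 0.09 in wild-type cells (adjusted p = 2.28e-05). Nolc1, a chaperone of snoRNPs, rose most of the 5, by 0.53 ± 0.07 in Jak2V617F (adjusted p = 1.54e-06) and 0.77 ± 0.07 in wild-type cells (adjusted p = 1.96e-09). The RNA helicase Ddx21 rose by 0.40 and 0.56, and Gnl3, nucleostemin, a GTP-binding protein of the nucleolus, by 0.38 and 0.41.

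For the box C/D snoRNP, which methylates riboses of rRNA, the genes of all 4 proteins rose in both genotypes. Fbl, fibrillarin, the methyltransferase, ran from 240.3 to 298 CPM in Jak2V617F pegIFN libraries (median 270.1), against 159 to 219 CPM with vehicle (median 199). In wild-type cells Fbl ran from 247 to 272 CPM with pegIFN (median 260.2), against 129 to 197 CPM with vehicle (median 169). The change was 0.45 ± 0.08 in Jak2V617F (adjusted p = 0.000142) and 0.63 ± 0.08 in wild-type cells (adjusted p = 8.97e-07). Nop56, a core scaffold protein, ran from 395 to 546 CPM in Jak2V617F pegIFN libraries (median 504), against 373 to 409 CPM with vehicle (median 391), so these groups overlapped. In wild-type cells Nop56 ran from 392 to 476 CPM with pegIFN (median 436), against 279.5 to 376 CPM with vehicle (median 318). Its change was 0.34 ± 0.07 in Jak2V617F (adjusted p = 0.000294) and 0.43 ± 0.07 in wild-type cells (adjusted p = 9.6e-06). Rrp9, the protein that marks the U3 snoRNP of early small-subunit processing, changed far more than the core proteins, from 71.0 to 98.1 CPM over Jak2V617F pegIFN libraries against 48.0 to 58.8 CPM with vehicle, and from 82.0 to 93.0 CPM over wild-type pegIFN libraries against 43.6 to 47.0 CPM with vehicle. That is 1.64-fold in Jak2V617F (log2 0.71 ± 0.07, adjusted p = 6.43e-09) and 1.93-fold in wild-type cells (0.95 ± 0.07, adjusted p = 2.03e-11). Nop58, the partner of Nop56, rose by 0.34 in Jak2V617F and 0.40 in wild-type cells, with overlap of the groups in both.

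The box H/ACA snoRNP converts uridines of rRNA to pseudouridines and also holds telomerase RNA. Of the genes of its 4 proteins, 3 rose in Jak2V617F and all 4 in wild-type cells. Dkc1, dyskerin, the pseudouridine synthase (chromosome X, 75095854 to 75109777), ran from 239 to 279 CPM in Jak2V617F pegIFN libraries (median 262), against 195 to 227 CPM with vehicle (median 217). In wild-type cells Dkc1 ran from 221 to 245 CPM with pegIFN (median 234), against 165 to 199 CPM with vehicle (median 174). It changed by 0.29 ± 0.05 in Jak2V617F (adjusted p = 0.00012) and 0.39 ± 0.05 in wild-type cells (adjusted p = 1.23e-06). Nhp2, an RNA-binding core protein, ran from 106.8 to 151.6 CPM in Jak2V617F pegIFN libraries (median 146), against 84.3 to 109.7 CPM with vehicle (median 101), which overlapped by the lowest pegIFN library. In wild-type cells it ran from 109.9 to 120.4 CPM with pegIFN (median 116), against 54.0 to 79.7 CPM with vehicle (median 65.5). Its change was 0.48 ± 0.09 in Jak2V617F (adjusted p = 0.000118) and 0.78 ± 0.09 in wild-type cells (adjusted p = 1.1e-07). Gar1, which helps release the product, rose by 0.33 and 0.53. Nop10, the smallest core protein, was the exception. It changed by 0.15 ± 0.10 in Jak2V617F cells, which did not pass the test (adjusted p = 0.222), and by 0.25 ± 0.10 in wild-type cells (adjusted p = 0.0338), and its pegIFN and vehicle libraries overlapped in both genotypes. The wild-type call held in 27 of 35 alternatives (adjusted p from 0.000804 to 0.136). It was lost without wild-type pegIFN replicate 6, without wild-type vehicle replicate 4, 5 or 6, without the pair set apart by Xist, without their mice, with upper-quartile factors and with a filter of 1 CPM.

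All 19 assembly factors of the small subunit rose in both genotypes, with medians of 0.37 in Jak2V617F and 0.45 in wild-type cells. Bysl, bystin, needed late in small-subunit maturation (chromosome 17, 47599331 to 47611492, minus strand), had the largest change of the set. It ran from 72.6 to 95.3 CPM in Jak2V617F pegIFN libraries (median 82.2), against 43.96 to 53.4 CPM with vehicle (median 50.5). In wild-type cells it ran from 78.9 to 94.2 CPM with pegIFN (median 85.4), against 34.1 to 44.6 CPM with vehicle (median 41.05). This is 1.67-fold in Jak2V617F (log2 0.74 ± 0.07, adjusted p = 3.31e-08) and 2.15-fold in wild-type cells (1.10 ± 0.07, adjusted p = 1.25e-11). Rrp12, an export and processing factor, came next with 0.58 ± 0.07 in Jak2V617F (adjusted p = 6.65e-07) and 0.81 ± 0.07 in wild-type cells (adjusted p = 1.33e-09). Heatr1, a large scaffold that joins the earliest precursor, rose by 0.39 ± 0.06 in Jak2V617F (adjusted p = 1.8e-05) and 0.67 ± 0.06 in wild-type cells (adjusted p = 2.63e-09). Noc4l, a partner of Nop14, rose by 0.50 and 0.72, Utp18 by 0.51 and 0.61, and Mphosph10, which anchors Imp3 and Imp4 to the U3 particle, by 0.49 and 0.55, while Nop14, Imp3 and Imp4 themselves rose by 0.20 to 0.37 in Jak2V617F and 0.30 to 0.45 in wild-type cells. The enzymes that modify the small-subunit rRNA also rose, Emg1, a methyltransferase, by 0.40 and 0.49, and Nat10, an acetyltransferase, by 0.35 and 0.51. The other processome proteins Utp15, Utp20, Wdr43 and Wdr75, the late factors Ltv1, Nob1 and Tsr1 and the helicase Ddx10 rose by 0.25 to 0.45 in Jak2V617F and 0.33 to 0.51 in wild-type cells.

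All 13 assembly factors of the large subunit rose in both genotypes, with medians of 0.44 in Jak2V617F and 0.54 in wild-type cells. Rrs1, known from yeast to bring a small ribonucleoprotein into the large subunit, ran from 107 to 145 CPM in Jak2V617F pegIFN libraries (median 128.5), against 86.8 to 93.0 CPM with vehicle (median 88.9). In wild-type cells it ran from 121 to 152 CPM with pegIFN (median 139), against 68.1 to 79.9 CPM with vehicle (median 75.4). The change was 0.53 ± 0.06 in Jak2V617F (1.45-fold, adjusted p = 6.05e-07) and 0.86 ± 0.06 in wild-type cells (1.82-fold, adjusted p = 7.84e-11). Of the complex that Pes1, Bop1 and Wdr12 form to process the large-subunit rRNA, Bop1 moved most, by 0.56 ± 0.08 in Jak2V617F (adjusted p = 5.03e-06) and 0.83 ± 0.08 in wild-type cells (adjusted p = 5.78e-09). Pes1 rose by 0.37 and 0.46 and Wdr12 by 0.44 and 0.54. Grwd1, a WD-repeat chaperone, rose by 0.66 ± 0.07 in Jak2V617F (adjusted p = 1.26e-07) and 0.74 ± 0.07 in wild-type cells (adjusted p = 7.86e-09), and Nop2, an rRNA methyltransferase, by 0.61 ± 0.06 (adjusted p = 7.59e-08) and 0.75 ± 0.06 (adjusted p = 9.99e-10). The methyltransferase Ftsj3, the helicase Ddx18 and the assembly factors Ebna1bp2, Nop16 and Noc2l lay between 0.34 and 0.44 in Jak2V617F and between 0.48 and 0.57 in wild-type cells. Rrp1b and Noc3l were lowest, with 0.20 and 0.24 in Jak2V617F and 0.27 and 0.29 in wild-type cells.

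**Figure D3:**
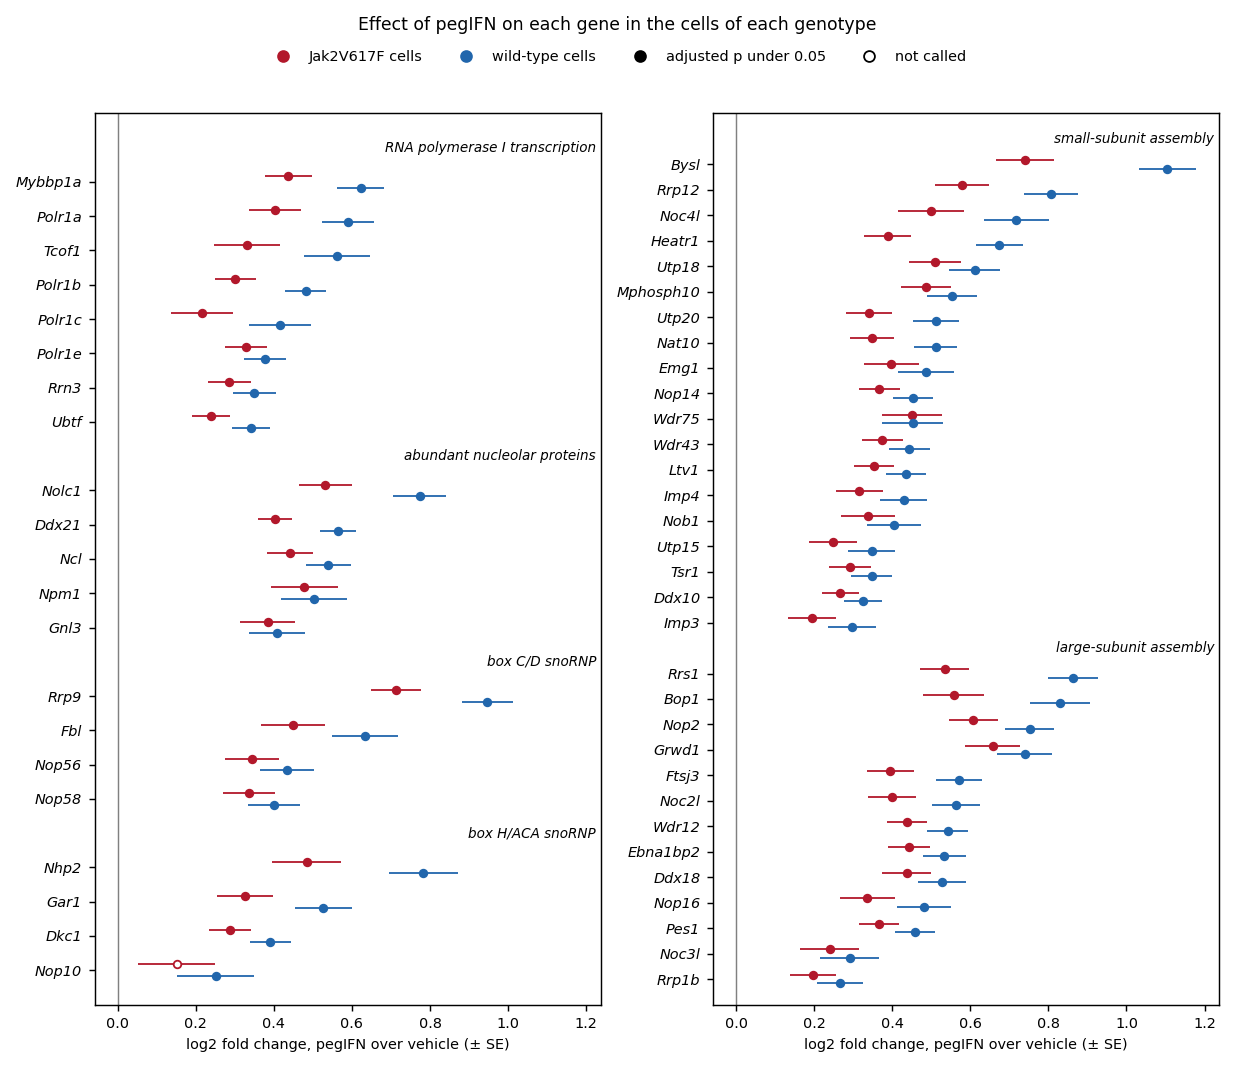
Log2 fold change with pegIFN against vehicle of each of the 53 genes in Jak2V617F and in wild-type cells, with bars of 1 SE, ordered within role. All values are above 0, and the highest is Bysl with 0.74 in Jak2V617F and 1.10 in wild-type cells.

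Some counts could include reads of neighbours, since the strand setting of the counting is not given in the sources used here. Exons of genes on the opposite strand cover 32.3% of Tsr1 (Srr, 18.8 CPM), 20.9% of Noc2l (Samd11, 3.91 CPM), 9.37% of Bysl (Ccnd3, 291 CPM) and 7.21% of Emg1 (Lpcat3, 59.2 CPM). These shares are of exon length and set no bound on the reads involved, and Ccnd3 is more abundant than Bysl itself. The values of these 4 genes are therefore uncertain. Other genes of the set have smaller overlaps on the opposite strand and carry the same limit. Among them are Nhp2 (3.84%, Rmnd5b, 31.8 CPM), Mybbp1a (2.26%, Spns2, 295 CPM), Heatr1 (1.98%, Lgals8, 61.8 CPM) and Gnl3 (0.25%, Pbrm1, 176 CPM). Ncl, Gnl3, Nop56 and Nop58 host snoRNA genes inside their transcripts.

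Promoter sequence was examined because these genes moved together. RefSeq promoter entries (build GRCm38.p6, 250 bases before to 50 after the start) matched 47 of the 53 genes, and none was used for Rrp12, Npm1, Rrs1, Bop1, Tcof1 and Fbl. The E-box CACGTG, a 6-base palindrome that MYC-type factors bind, was searched on both strands. It was present in 11 of 47 (23.4%), namely Grwd1, Imp4, Ltv1, Mybbp1a, Nop2, Pes1, Rrn3, Tsr1, Utp18, Utp20 and Wdr43, against 8.09% of 27025 genes. These 27025 include genes with too few counts to be tested here, so they are a wider background than the set. Of the tested genes with an entry, 1157 held an E-box and 8772 did not, a larger share than among the 27025. In the 250 bases before the start alone it was present in 4 of 47 (8.51%), against 6.86% of genes, so most copies lay just after the start. The stretches of 30 bases that hold the copies before the start are shown with the E-box in capitals, 5′ to 3′ on the strand of the gene. Those of Rrn3 lie at chr16:13780472-13780501 and chr16:13780639-13780668 (plus strand), that of Nop2 at chr6:125131811-125131840 (plus), that of Utp18 at chr11:93885769-93885798 (minus) and that of Imp4 at chr1:34439696-34439725 (plus).
Rrn3, far copy: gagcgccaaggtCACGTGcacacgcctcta
Rrn3, near copy: ttacgctctgctCACGTGggccgcgtcccg
Nop2: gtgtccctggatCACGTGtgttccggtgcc
Utp18: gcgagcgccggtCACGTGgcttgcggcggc
Imp4: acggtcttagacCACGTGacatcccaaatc
Rrn3 was the single gene of the set with 2 copies. The flanks of the 5 stretches differ, and the shared run is the palindrome itself.

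Medians of genes with and without an E-box lay close together. With pegIFN the median log2 fold change of the 11 genes with an E-box was 0.37 in Jak2V617F and 0.46 in wild-type cells, and that of the 36 genes without it was 0.38 and 0.48. The ETS-type motif CCGGAAG was present in 18 of 47 promoters (38.3%), against 9.93% of genes, and in 12 (25.5%), against 7.83%, before the start. The NRF1-type motif GCGCATGC was present in 3 of 47 (6.38%), against 3.05%. The interferon-response type motif GAAANNGAA was present in 4 of 47 (8.51%), against 9.76% of genes. For these motifs too the shares of genes are over all genes with an entry, tested or not. The matches describe letters in the window and were not tested against the levels.

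The rest of the pathway moved in the same direction. Of 116 further genes listed, 112 were matched and tested, and 92 rose and 1 fell in Jak2V617F cells, while 95 rose and 1 fell in wild-type cells. Their medians were 0.31 and 0.39, below those of the 53 genes. By list, 35 of 38 further small-subunit factors rose in Jak2V617F and 33 in wild-type cells, 36 and 39 of 46 large-subunit factors, 7 and 7 of 7 snoRNP assembly factors and 11 and 12 of 12 exosome genes. Of 9 further genes of rRNA transcription, 3 rose in Jak2V617F and 4 in wild-type cells. Ddx24, an RNA helicase, had the smallest p, with 1.107 ± 0.05 in Jak2V617F (adjusted p = 7.25e-15) and 1.13 ± 0.05 in wild-type cells (adjusted p = 4.32e-15). Mrto4, a large-subunit factor that resembles a ribosomal stalk protein, rose by 0.66 and 0.83, Nol10 by 0.53 and 0.71, and the assembly ATPases Ruvbl1 and Ruvbl2 by 0.45 and 0.47 in Jak2V617F and 0.58 and 0.64 in wild-type cells. The single gene that fell was Gnl3l, a relative of nucleostemin, by 0.35 ± 0.05 in Jak2V617F (adjusted p = 3.19e-06) and 0.29 ± 0.05 in wild-type cells (adjusted p = 1.22e-05). Of 81 genes of cytosolic ribosomal proteins, 40 rose and none fell in Jak2V617F cells, and 40 rose and 3 fell in wild-type cells, with medians of 0.15 and 0.13.

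Other programmes moved along with the set, and their part in the result was not tested. Of 16 proliferation genes, 7 rose in Jak2V617F and 14 in wild-type cells, and none fell. Their summed level ran from 5227 to 5604 CPM in Jak2V617F pegIFN libraries, against 3865 to 5368 CPM with vehicle, and from 4856 to 5438 CPM in wild-type pegIFN libraries, against 2866 to 4589 CPM with vehicle. Of 11 LT-HSC markers 9 fell and 1 rose in each genotype, and their summed level ran from 941 to 1607 CPM in Jak2V617F pegIFN libraries, against 1368 to 1848 CPM with vehicle, and from 1040 to 1445 CPM in wild-type pegIFN libraries, against 1760 to 2569 CPM with vehicle. Ly6a (Sca1) rose, with means of 263 CPM with pegIFN and 53.2 CPM with vehicle in Jak2V617F, and 228 and 57.0 CPM in wild-type cells. Means of Kit were 336.5 and 614 CPM in Jak2V617F, and 509.5 and 929 CPM in wild-type cells. Those of Slamf1 (CD150) were 37.02 and 37.35 CPM, and 35.2 and 40.2 CPM. These genes encode antigens of the sort gate, and whether it held like populations in both treatments was not tested. All 10 interferon-stimulated genes rose in both genotypes. Counts of mitochondrial genes made up 2.00 to 3.25% of Jak2V617F pegIFN libraries, against 2.68 to 3.45% with vehicle, and 1.54 to 2.24% of wild-type pegIFN libraries, against 2.46 to 4.01% with vehicle, without overlap in wild-type cells. Myc averaged 414 CPM with pegIFN and 342 CPM with vehicle in Jak2V617F cells (log2 0.28 ± 0.08, adjusted p = 0.0064), and 489 CPM with pegIFN and 385 CPM with vehicle in wild-type cells (0.34 ± 0.08, adjusted p = 0.000652). Of the 7 tested of 8 listed genes of the MYC family, 2 rose and 2 fell in each genotype. Max, the partner of MYC, rose by 0.36 in Jak2V617F and 0.41 in wild-type cells, and Mxi1, which competes with MYC for Max, fell by 0.41 and 0.33.

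Markers of other cells in the sort were mixed, and their part in the result was not tested either. Of 8 erythroid genes, 3 rose and 4 fell in each genotype, with summed levels from 118 to 391 CPM in Jak2V617F pegIFN libraries against 149.6 to 411 CPM with vehicle, and from 364 to 689 CPM in wild-type pegIFN libraries against 160.5 to 626 CPM with vehicle. Of 12 granulocyte and monocyte genes, 1 rose and none fell in Jak2V617F cells and 1 rose and 2 fell in wild-type cells. Of 7 megakaryocyte genes, none rose and 1 fell in Jak2V617F cells, and 2 rose and 1 fell in wild-type cells, with summed levels from 2153 to 2935 CPM in Jak2V617F pegIFN libraries against 1495 to 2942 CPM with vehicle, and from 1622 to 2560 CPM in wild-type pegIFN libraries against 1013 to 2416 CPM with vehicle. B-cell and T-cell genes were low. Of 3 B-cell genes tested, 1 fell in Jak2V617F and 3 in wild-type cells, and the 5 listed summed to at most 23.4 CPM in any library. Of 6 T and NK genes Nkg7 alone could be tested, and it rose in both genotypes, while Cd3e was at 0 in 15 of 24 libraries. Of 5 endothelial and stromal genes tested, 3 fell in Jak2V617F and 4 in wild-type cells, and the 8 listed summed to 67.2 to 85.0 CPM in Jak2V617F pegIFN libraries against 83.8 to 179 CPM with vehicle, and to 67.8 to 87.0 CPM in wild-type pegIFN libraries against 84.1 to 119 CPM with vehicle.

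Under vehicle the set was higher in Jak2V617F than in wild-type cells. Of the 53 genes, 22 rose and none fell, against 8.48% of all genes called higher and 4.23% lower, and the fold change was above 0 for all 53. The median log2 fold change was 0.18 (1.13-fold), where that of all genes was -0.01, and single genes ran from 0.02 (Tsr1) to 0.56 (Nhp2). For 14 genes the 6 Jak2V617F libraries all lay above the 6 wild-type libraries, against 1.76% of all genes in that direction and 1.15% in the other. The genes called were all 4 of box H/ACA, 3 of 4 of box C/D, 3 of 5 nucleolar proteins, 7 of 19 small-subunit and 5 of 13 large-subunit factors, and none of the 8 of rRNA transcription.

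The difference was largest in size for Nhp2. Nhp2 ran from 84.3 to 109.7 CPM in Jak2V617F vehicle libraries (median 101), against 54.0 to 79.7 CPM in wild-type vehicle libraries (median 65.5), without overlap (log2 0.56 ± 0.09, 1.48-fold, adjusted p = 0.000948). Dkc1 ran from 195 to 227 CPM in Jak2V617F, against 165 to 199 CPM in wild-type cells (0.26 ± 0.05, adjusted p = 0.00343), and Nop10 from 82.6 to 120 CPM in Jak2V617F, against 63.6 to 103 CPM in wild-type cells (0.36 ± 0.10, adjusted p = 0.0185). Gar1 differed by 0.23 ± 0.07 (adjusted p = 0.0357). The U3-related and late small-subunit factors followed, with Emg1 at 87.0 to 109 CPM in Jak2V617F, against 72.0 to 86.6 CPM in wild-type cells (0.33 ± 0.07, adjusted p = 0.00523), and Bysl at 0.32 ± 0.07 (adjusted p = 0.007). Noc4l differed by 0.32 ± 0.08 (adjusted p = 0.0156) and Mphosph10 by 0.26 ± 0.06 (adjusted p = 0.0116). Of the large-subunit factors, Nop16 differed by 0.31 ± 0.07 (adjusted p = 0.0071), Bop1 by 0.32 ± 0.08 (adjusted p = 0.00892) and Rrs1 by 0.25 ± 0.06 (adjusted p = 0.0138). Of the abundant proteins, Nolc1 differed by 0.28 ± 0.07 (adjusted p = 0.00892), Npm1 by 0.30 ± 0.09 (adjusted p = 0.024) and Ncl by 0.19 ± 0.06 (adjusted p = 0.0356). Nop56 differed by 0.28 ± 0.07 (adjusted p = 0.0105), while Fbl, at 0.23 ± 0.08, did not pass (adjusted p = 0.0645) and Polr1a, at 0.06 ± 0.07, was far from it (adjusted p = 0.6).

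More genes passed when libraries of the same mouse were compared. With the mouse as a block, 41 of 53 genes were higher in Jak2V617F vehicle cells and none lower, against 17.5% of all genes higher and 13.6% lower, with an unchanged median of 0.18. By role these were 6 of 8, 5 of 5, 4 of 4, 4 of 4, 12 of 19 and 10 of 13, in the order of the opening. Nhp2 (0.57, adjusted p = 1.44e-05), Ncl (0.19, adjusted p = 0.000776), Npm1 (adjusted p = 0.000159) and Fbl (0.24, adjusted p = 0.00135) were all called. In the single mice given vehicle, 51, 40, 49, 48, 52 and 49 of the 53 genes were higher in the Jak2V617F library (replicates 1 to 6), and 34 genes were higher in 6 of 6 mice. The count without the block depended on single libraries. It was 9 without wild-type vehicle replicate 4, 13 without wild-type vehicle replicate 5, 15 to 32 without any other library, and 11 without the pair set apart by Xist. With the block it stayed between 36 and 43 without any 1 mouse, and was 35 without both mice of that pair. On totals without the scaling, 8 genes were separated in place of 14.

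**Figure D4:**
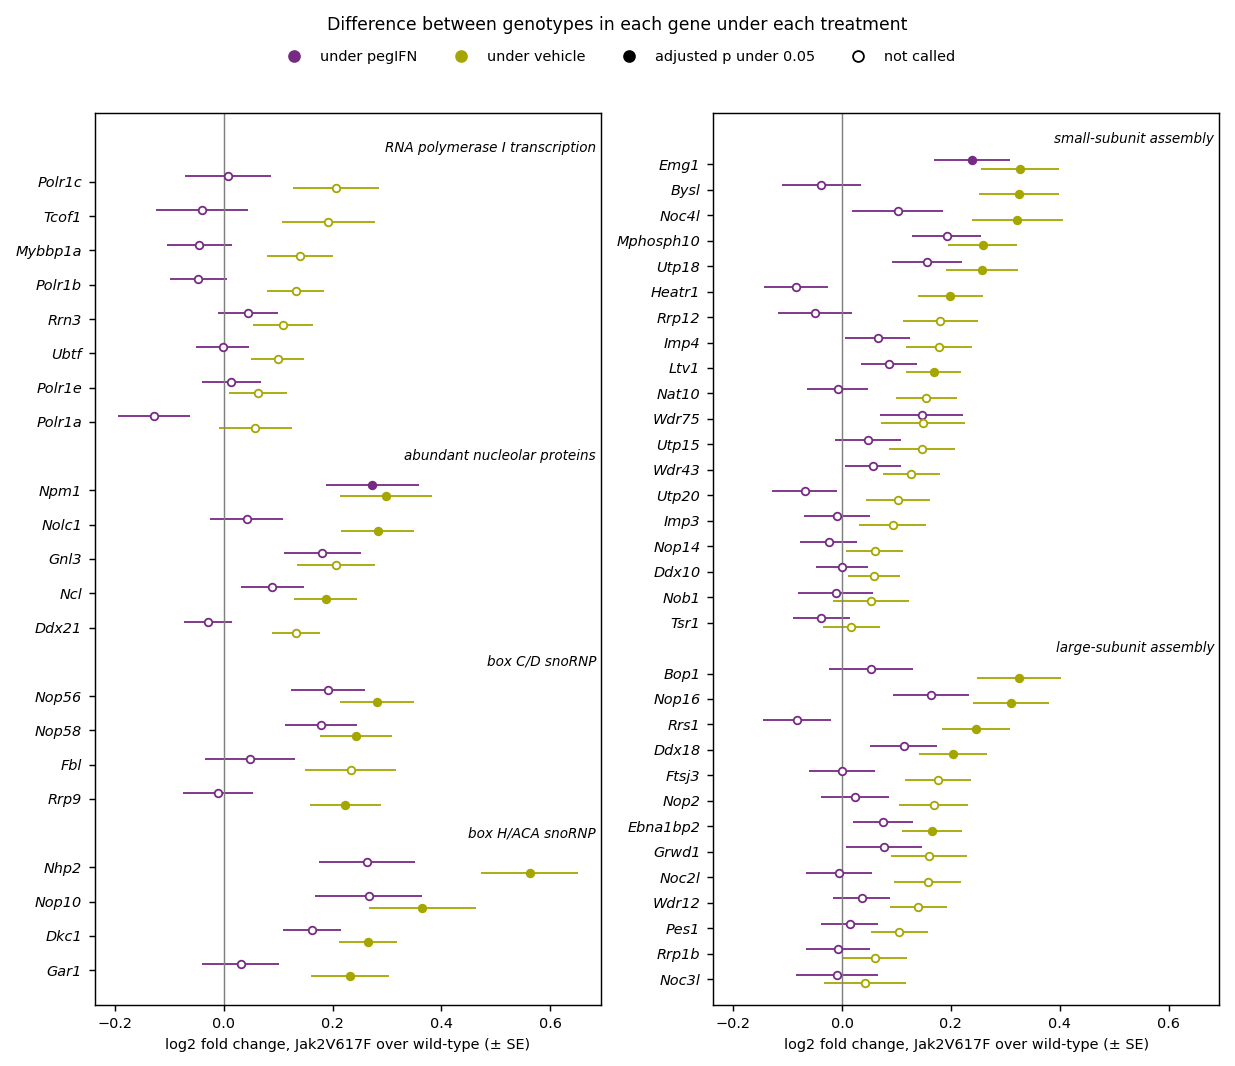
Log2 fold change of Jak2V617F against wild-type cells for each of the 53 genes, under vehicle and under pegIFN, with bars of 1 SE, ordered within role. Under vehicle all 53 values are above 0, with Nhp2 highest at 0.56, and under pegIFN 33 of 53 are above 0 and the median is 0.03.

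Under pegIFN few genes of the set differed between the genotypes. Of 53 genes 2 rose and none fell, against 4.16% of all genes called higher and 4.43% lower, a share near the background. The median log2 fold change was 0.03 (1.02-fold) and 33 of 53 were above 0. No gene had separate groups, against 1.65% of all genes higher and 1.81% lower. The 2 genes were Npm1, with a median of 1463 CPM in Jak2V617F and 1177 CPM in wild-type cells (0.27 ± 0.09, adjusted p = 0.046), and Emg1, with 137 CPM in Jak2V617F and 115 CPM in wild-type cells (0.24 ± 0.07, adjusted p = 0.0361). Dkc1 was at 0.16 ± 0.05 (adjusted p = 0.0533), Nop56 at 0.19 ± 0.07 (adjusted p = 0.0811), Ncl at 0.09 ± 0.06 (adjusted p = 0.365), Fbl at 0.05 ± 0.08 (adjusted p = 0.775) and Polr1a at -0.13 ± 0.07 (adjusted p = 0.236). With the mouse as a block 11 genes were higher and 1 lower, against 13.3% of all genes higher and 11.3% lower. Those higher were Npm1 (0.28, adjusted p = 0.000541), Emg1 (0.24, adjusted p = 0.00107), Nop10 (0.26, adjusted p = 0.00125), Nhp2, Dkc1, Nop56, Nop58, Mphosph10, Gnl3, Utp18 and Nop16, and Polr1a was lower (-0.13 ± 0.04, adjusted p = 0.026), a call lost without the mouse of pegIFN replicate 1 or 4. In the single mice given pegIFN, 31, 38, 17, 28, 44 and 37 of the 53 genes were higher in the Jak2V617F library (replicates 1 to 6). Without the block the count of 2 was 0 when any of wild-type pegIFN replicates 1 to 5 or Jak2V617F pegIFN replicates 1, 2, 4, 5 and 6 was left out, 10 without Jak2V617F pegIFN replicate 3, 5 without wild-type pegIFN replicate 6, and 1 to 4 without any vehicle library. Without the pair set apart by Xist it was 0. With the block and without both of their mice, 6 genes were higher and none lower.

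Other markers that moved with genotype were granulocyte and monocyte genes, and their part in the result was not tested. None of the 12 was called under vehicle and 4 were called higher under pegIFN. The sizes were alike, with all 12 above 0 and a median log2 fold change of 1.188 under vehicle and 1.265 under pegIFN. Their summed level ran from 447 to 2534 CPM in Jak2V617F vehicle libraries, against 398 to 1202 CPM in wild-type vehicle libraries. Under pegIFN it ran from 963 to 1682 CPM in Jak2V617F libraries, against 217 to 821 CPM in wild-type libraries. LT-HSC markers were lower for 2 of 11 under vehicle and 1 under pegIFN. Megakaryocyte genes were higher for 2 of 7 and lower for 1 under vehicle, and none was called under pegIFN, while of the erythroid genes none was called under vehicle and 1 was lower under pegIFN. Of 16 proliferation genes 7 were higher in Jak2V617F cells under vehicle and 1 under pegIFN, and none was lower. Of the 112 further pathway genes, 26 rose and none fell under vehicle, and 13 rose and 1 fell under pegIFN. Exosc8 of the RNA exosome had the smallest p under vehicle (0.42 ± 0.07, adjusted p = 0.00225) with Nol11 (0.29 ± 0.05, adjusted p = 0.00249) and Mrto4 (0.38 ± 0.07, adjusted p = 0.00254), and Exosc9 had it under pegIFN (0.34 ± 0.07, adjusted p = 0.00656). Baz2a, a silencer of rDNA repeats, was the gene that fell under pegIFN (-0.19 ± 0.06, adjusted p = 0.0462). Myc was not called in either genotype comparison, with -0.17 under vehicle (adjusted p = 0.143) and -0.24 under pegIFN (adjusted p = 0.0558). Of the 7 MYC family genes tested, Mxd4, another competitor of MYC for Max, was the 1 called in these comparisons, and it was lower, at -0.41 ± 0.11 under vehicle (adjusted p = 0.0165) and -0.48 ± 0.11 under pegIFN (adjusted p = 0.00878). The mitochondrial share was 2.68 to 3.45% in Jak2V617F and 2.46 to 4.01% in wild-type libraries under vehicle, and 2.00 to 3.25% in Jak2V617F and 1.54 to 2.24% in wild-type libraries under pegIFN, and its part in the result was not tested.

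**Figure D5:**
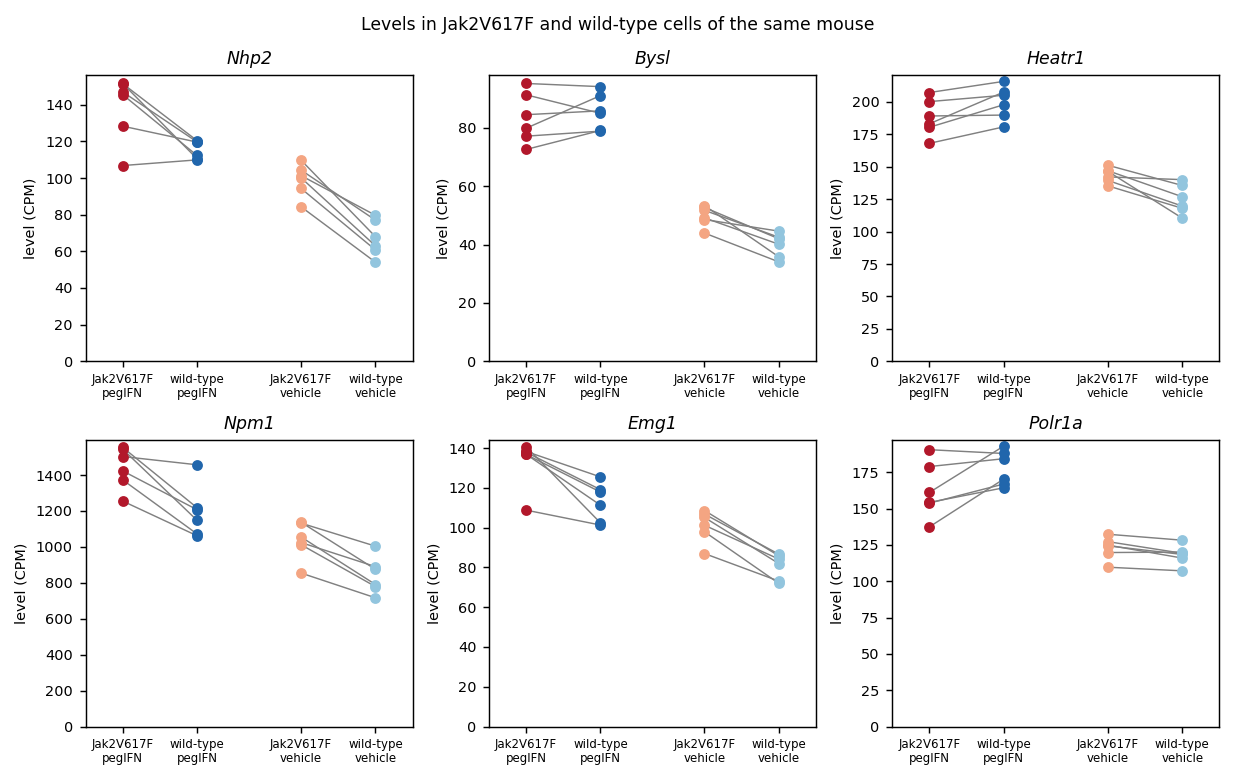
Levels in CPM of Nhp2, Bysl, Heatr1, Npm1, Emg1 and Polr1a in the Jak2V617F and the wild-type library of each mouse, joined by a line, for mice given pegIFN and mice given vehicle. Nhp2 is at 84.3 to 109.7 CPM in Jak2V617F and 54.0 to 79.7 CPM in wild-type vehicle libraries, and under pegIFN Polr1a is higher in the Jak2V617F library of 1 of 6 mice.

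Whether the pegIFN response differed between the genotypes was tested as the interaction. All 53 differences were below 0, that is, a smaller rise in Jak2V617F cells, while 50.4% of all genes were below 0. The median was -0.10, from -0.36 (Bysl) to -0.002 (Wdr75). No gene of the table passed the test (0% higher and 0% lower), where 1338 genes, and 12 of the 53, all lower, had an unadjusted p under 0.05. DESeq2 called 38 genes and limma-voom none, and none of them belonged to the set. With the mouse as a block 203 genes were higher (1.28%) and 325 lower (2.05%), and 6 of the 53 were among the lower. These were Rrs1 (-0.33 ± 0.06, adjusted p = 0.0126), Bysl (-0.37 ± 0.07, adjusted p = 0.0147), Heatr1 (-0.29 ± 0.06, adjusted p = 0.0169), Nolc1 (-0.25 ± 0.06, adjusted p = 0.028), Bop1 (-0.28 ± 0.07, adjusted p = 0.0397) and Nhp2 (-0.32 ± 0.08, adjusted p = 0.0478). Heatr1 had a median of 186 CPM in Jak2V617F and 201.5 CPM in wild-type pegIFN libraries, and of 144 CPM in Jak2V617F and 123 CPM in wild-type vehicle libraries. The order of its medians differed by treatment, but its difference under pegIFN was not called with or without the block. For Nhp2 the log2 fold change of Jak2V617F against wild-type cells was 0.26 ± 0.09 with pegIFN and 0.56 ± 0.09 with vehicle. The calls depended on single mice. With the block, none of the 53 was called without both mice of the pair set apart by Xist, 3 without the mouse of pegIFN replicate 1, 3 or 4 or of vehicle replicate 4, 5 or 6, 14 without that of pegIFN replicate 5, and 4 to 9 without any other mouse.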

How the data were processed

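The deposited table holds expected counts per gene, for which the submitters' processing notes name cutadapt (1.11), the aligner STAR (2.5.2a), RSEM (1.2.30) as quantifier and the build GRCm38. The annotation release and strand setting are not given in the sources used here. RSEM divides shared reads among genes, so 16.8% of values are not whole (tolerance 0.004), and they were rounded before testing. No 2 libraries of the same group agreed within sampling noise, and pairs from different groups were not compared.

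Genes were kept by filterByExpr (minimum count 10), which removed 22336. The 4 group means were fitted without a block in edgeR (4.0.16, R 4.3.3) on TMM-scaled counts, followed by quasi-likelihood tests whose p-values were adjusted by Benjamini-Hochberg over the 15879 remaining genes. The common coefficient of biological variation was 18.6%. The SE is the log2 fold change over the root of F. CPM use TMM-scaled totals. The figure of levels used log2 CPM without a prior count, and the library medians in its caption used log2 CPM with a prior count of 2. The pipeline was tested on simulated data. Each library is 1 sorted sample, and each mouse gave 1 library of each genotype. Without a block, p-values measure the spread between libraries of a group and treat both libraries of a mouse as independent. With the mouse as a block, they measure the spread of differences within mice.

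The mouse of a library was read from the number in its name, and a recipient held cells of both donors. After removal of group means, libraries of both genotypes from the same mouse correlated at 0.119 to 0.416 (median 0.284, 12 pairs), and 10 of 12 were highest with their partner. The mouse therefore served as a block beside the genotype and interaction results.

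The genes and lists were chosen with earlier results of these data known. Statistics were printed for Ncl, Npm1, Fbl, Nop56, Dkc1 and Polr1a, for up to 4 genes of each role with the smallest p, and for the largest rise and fall. Further pathway genes were limited to the 3 of each list with the smallest p in each comparison, and Myc. Gnl3l was added outside this rule, as the single further pathway gene called lower with pegIFN. Ly6a, Kit and Slamf1 were also added outside it, as genes of antigens of the sort gate. Other genes of the set were named with their fold change, and other lists by counts and sums. Alternatives were DESeq2 1.42.0, limma-voom (limma 3.58.1), other scalings and filters, and each library left out. Gene positions and exon lengths are from GENCODE on GRCm38, which held all 53. Promoters came from RefSeq, build GRCm38.p6.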

Additional observations from a re-analysis of the deposited data

Results flagged for a closer look

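Within groups of 6 libraries, 9 of 212 gene and group pairs had 1 library far from the other 5 by the size of its gap, where chance gives about 1 in 20. Of these, 4 lay in Jak2V617F pegIFN replicate 3, which was low. It had 395 CPM of Nop56 (others 494.5 to 546), 69.4 CPM of Utp15 (others 80.5 to 86.6), 109 CPM of Emg1 (others 137 to 141) and 114 CPM of Ebna1bp2 (others 132 to 142). The same mouse had the smallest number of genes higher in Jak2V617F, 17 of 53. Jak2V617F pegIFN replicate 6 was high for Ddx10, with 103 CPM (others 91.4 to 95.1). Wild-type pegIFN replicate 4 was high for Polr1c, with 67.4 CPM (others 60.1 to 62.4), and Nat10, with 203 CPM (others 174 to 184.5). Jak2V617F vehicle replicate 5 was high for Mybbp1a, with 484 CPM (others 452.5 to 461), and wild-type vehicle replicate 1 for Pes1, with 135 CPM (others 112 to 119.9).

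With the mouse as a block, the pegIFN effect in Jak2V617F minus that in wild-type cells passed the edgeR test, with adjusted p from 0.0126 to 0.0478, for Rrs1 (-0.33), Bysl (-0.37), Heatr1 (-0.29), Nolc1 (-0.25), Bop1 (-0.28) and Nhp2 (-0.32). Without the block none passed.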

How the results depend on the processing

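The pegIFN increase changed little with the settings tried. Leaving out each library gave 51 to 52 genes called in Jak2V617F and 52 to 53 in wild-type cells, and the other alternatives gave 48 to 52 and 52 to 53. The median log2 fold change in wild-type cells was 0.43 with upper-quartile factors in place of 0.51, where the median of all genes moved by -0.08. Single calls were lost in some of 35 alternatives. Nop10 in wild-type cells held in 27, and in Jak2V617F cells Polr1c held in 32, Imp3 in 33 and Noc3l and Rrp1b in 34. Each mouse had 1 treatment, so the mouse could not serve as a block for pegIFN against vehicle. Replicate numbers across treatments joined different mice (correlations -0.239 to 0.057), so the fit with that number as a replicate block, which called 52 and 53 genes, is no evidence on stability. On totals without scaling, 8 genes in place of 14 were separated between genotypes under vehicle.

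For Jak2V617F against wild-type cells under vehicle, 22 genes were called higher without a block. The count was 41 with the mouse as a block and 42 with it as a random effect. Without a block it was 11 without the libraries set apart by Xist, 13 without their mice, and 9 to 32 with each library left out. Under pegIFN, 2 genes were called higher. The count was 5 with DESeq2, 0 without a filter on low counts and 4 in a fit of only the groups compared. It was 11 with the mouse as a block (and 1 lower) and 11 with it as a random effect (and 1 lower). Without a block it was 0 without the libraries set apart by Xist, 0 without their mice, and 0 to 10 with each library left out. For the interaction 6 genes were lower with the mouse as a block and 3 with it as a random effect, against none without a block. The interaction of Npm1 was -0.02, and it ran from -0.10 to 0.04 with each library left out, above 0 for 3 of them (0.038, 0.023 and 0.005). The cause of these changes was not tested. With at least 930 counts of each gene in every library, counting error was small.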
